A study of Mus musculus with 36 samples.

Results

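The 39 genes described here are type I interferon-stimulated genes, chosen by symbol as a list of genes that cells switch on through the interferon alpha and beta receptor. All 39 were found among the 56748 genes of the table, and all 39 passed the filter on low counts in each of the 19 comparisons made. The mRNA of mouse CD4 T cells was sequenced in 36 libraries, 3 for each of 12 groups, and 35 libraries were used. The groups cross 2 mouse lines, 2 genotypes and 3 conditions. In the HP1a line, KO cells lacked the heterochromatin protein HP1a (gene Cbx5) in the germline, after deletion of a floxed allele with CMV-cre, and WT cells came from littermates with both alleles intact. In the HP1g line, KO cells carried Hp1g flox alleles (gene Cbx3) cut by Cd4-cre, which acts in the T cell lineage from the thymus onwards, and WT cells carried the same flox alleles without Cre. Donors of both lines were 6 to 12 weeks old, on a mixed 129/Sv and C57BL/6 background. Naive cells were CD4+ CD62L+ CD44 low cells that had not been grafted. Tconv cells were the same kind of cell recovered 3 weeks after transfer into lethally irradiated B6 hosts (C57BL/6J or CD45.1+ B6), which also received T cell-depleted bone marrow, in part from semi-allogeneic B6D2F1 mice. TconvTreg cells were recovered from hosts that also received WT regulatory T cells (Treg) expanded ex vivo. The study used various ratios of Treg to Tconv, and the ratio behind these libraries is not known here. Grafted cells were sorted from the spleen as Vβ6+ CD4+ Thy1.1- cells. Naive and grafted libraries carry separate label series, so an effect of preparation and an effect of activation cannot be told apart.

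Type I interferons bind a receptor made of Ifnar1 and Ifnar2, and the kinases Jak1 and Tyk2 then pass the signal on. Stat2 and Irf9 are part of the complex ISGF3, which binds the interferon-stimulated response element near the starts of its target genes. In CD4 T cells the products of these genes block viral replication at many steps, and several of them, such as Usp18, also limit further signalling.

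The libraries held 37029477 to 63042165 counts each, so that a gene without a count in a library lies under 0.0476 to 0.0810 CPM (3 counts, counting error only), where CPM is the count scaled by TMM to a common library total. The deleted genes followed the labels as ranges. Cbx5 lay at 9.25 to 19.7 CPM in the HP1a KO libraries and at 18.6 to 61.9 CPM in the WT libraries of that line, and was lower in KO within each condition. Cbx3 lay at 59.4 to 80.8 CPM in the HP1g KO libraries and at 79.5 to 200.1 CPM in WT. All 8 CD4 T cell markers were detected in every group, with a summed level of 6079 to 10770 CPM. Transcripts of other cells were also present. The sum of 6 erythroid markers was 2478 to 4895 CPM in the 4 grafted HP1g libraries numbered 1 and at most 572 CPM in all others, and the sum of 7 neutrophil markers was 242 to 434 CPM in HP1a KO TconvTreg against 1.59 to 37.03 CPM in HP1a WT TconvTreg. One library of naive HP1g WT cells, replicate 2, stood apart by transcript length. Its genes in the third with the shortest transcripts were higher than in the other 2 libraries of its group by a median of 0.47 on the log2 scale, and those in the third with the longest transcripts were lower by 0.36 (median -0.36). In the HP1a WT TconvTreg group, replicate 3 had a median of 0.03 for short and -0.24 for long transcripts. HP1g KO TconvTreg replicate 3 was left out of all comparisons. Its short transcripts had a median of -2.07 against the other libraries of its group.

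The members sit in several clusters on GRCm39. Ifit2, Ifit3, Ifit3b and Ifit1 lie in this order on chromosome 19, between 34527932 and 34632174. Oas2, Oas3 and Oas1a lie on chromosome 5 between 120868398 and 121046449, with Oasl2 and Oasl1 on the same chromosome between 115034997 and 115075974. Rsad2 and Cmpk2 are neighbours on chromosome 12, from 26492745 to 26529836, on opposite strands. Parp14, Dtx3l and Parp9 are neighbours on chromosome 16, from 35653231 to 35792980, and Mx1 and Mx2 lie further along it, from 97248235 to 97362100. The core of the interferon-stimulated response element, GAAANNGAAA on either strand, was found within 250 bases before to 50 bases after the canonical start in 18 of the 39 members (46.2%), while 3.84% of 21617 protein-coding genes had it (829 genes). The gamma-activated site TTCNNNGAA, an element of genes that respond to interferon gamma, was found in 7 of the 39 (17.9%), against 8.85% of all. A match is a description of letters only.

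The sequences below, read from GRCm39 on the strand of the gene, are shown because these members carried the changes described further on or are the standard reporters of the pathway. Capitals mark 1 match to the core motif in each, written as its reverse complement where the match is on the other strand. Isg15 holds 3 overlapping matches, and Ifit1, Ifit3, Ifit3b and Usp18 hold 2 each, so that further matches can lie in the lower-case letters, as in Isg15 and Ifit1.
Isg15, chr4:156285318-156285367, motif at -44 to -35 from the start: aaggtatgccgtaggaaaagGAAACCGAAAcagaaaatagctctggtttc
Ifit3, chr19:34560753-34560802, motif at -126 to -117: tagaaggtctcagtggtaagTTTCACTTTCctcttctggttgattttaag
Ifit3b, chr19:34585149-34585198, motif at -159 to -150: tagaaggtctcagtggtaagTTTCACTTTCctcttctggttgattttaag
Ifit1, chr19:34618165-34618214, motif at -86 to -77: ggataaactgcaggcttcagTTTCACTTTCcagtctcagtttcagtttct
Oas3, chr5:120915770-120915819, motif at -70 to -61: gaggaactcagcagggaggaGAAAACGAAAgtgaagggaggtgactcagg
Oas2, chr5:120887960-120888009, motif at -56 to -47: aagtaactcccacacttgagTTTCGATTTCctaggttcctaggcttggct
Rsad2, chr12:26506542-26506591, motif at -120 to -111: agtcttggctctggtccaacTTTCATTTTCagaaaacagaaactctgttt
Usp18, chr6:121222762-121222811, motif at -75 to -66: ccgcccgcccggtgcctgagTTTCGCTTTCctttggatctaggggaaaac
The windows of Ifit3 and Ifit3b are the same 50 letters. Mx1, Cmpk2 and Oasl1 held neither motif in the window, and Ifit2 held the gamma-activated site only.

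Levels per length differed widely among the members. By the median over the 35 libraries, Ifi27l2a, which encodes a small membrane protein, was highest at 152 CPM per kilobase of exon. It was followed by Sp100, a nuclear body protein, at 74.3, by Bst2 (tetherin, which holds budding virions at the cell surface) at 45.3 and by the dNTP hydrolase Samhd1 at 42.0 CPM per kilobase. The lowest were Phf11d at 0.35, Mx2 at 0.41 and Ifi44 at 0.42 CPM per kilobase.

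Tconv recovered without Treg were compared with naive cells of the same line and genotype, which asks how the list differed 3 weeks after transfer along with partly semi-allogeneic marrow. A member was called where its log2 fold change was above 1 or below -1 and its adjusted p by edgeR's quasi-likelihood test was under 0.05. In bulk samples a change in the share of a cell type and a change in RNA per cell cannot be told apart. The list moved in both directions. In HP1a WT cells 9 of 39 rose (23.1%) and 2 fell (5.13%), while of all genes 12.9% rose and 10.2% fell. In HP1a KO cells 10 rose (25.6%, against 12.4% of all genes) and 1 fell (2.56%, against 7.24%). In HP1g WT cells 5 rose (12.8%, against 15.0%) and 2 fell (5.13%, against 8.55%). In HP1g KO cells 12 rose (30.8%, against 15.7%) and 2 fell (5.13%, against 7.30%). The median log2 fold change of the 39 was 0.39, 0.42, 0.15 and 0.44 in this order, and that of all genes tested lay between -0.04 and 0.02. In HP1g WT cells the members' median ranged from 0.02 (without naive replicate 1) to 0.35 (without naive replicate 2) when 1 library was left out. The 22 members called in none of the 4 comparisons included Stat2, Irf9, Irf7 and Ifit1.

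Markers of other cells and of Treg differed between Tconv and naive cells too. Of the myeloid markers that passed the filter, 0 of 4 were called higher in HP1a WT, 5 of 7 in HP1a KO, 6 of 9 in HP1g WT and 6 of 8 in HP1g KO cells, and the 10 markers summed to 6.08 to 12.8 CPM in naive libraries. In Tconv they summed to 6.77 to 7.70 CPM in HP1a WT, 12.5 to 149 in HP1a KO, 20.7 to 76.4 in HP1g WT and 29.8 to 77.9 CPM in HP1g KO. The neutrophil markers summed to at most 2.72 CPM in naive cells and 0.272 CPM in HP1a WT Tconv, and reached 61.9, 556 and 138 CPM in the Tconv of the other 3 groups. The Treg markers, 3 or 4 of 5 of which were called higher in each comparison, summed to 84.9 to 161 CPM in naive and 328 to 534 CPM in Tconv. The hosts of these Tconv received no Treg, and the paper reports Foxp3+ cells among Tconv themselves, so these genes need not mark another cell type. The plasmacytoid dendritic cell markers summed to 60.6 to 80.1 CPM in naive and 19.5 to 58.5 CPM in Tconv. Only 2 of these 5 had a mean of 1 CPM or more in naive cells, and 2 passed the filter in each comparison. Clec10a was at 0 in all naive libraries, so the naive sums rest on few of the 5 markers and do not measure the share of such cells. Of these 2, 1 was called lower in each comparison, and 1 was called higher in all but HP1g KO. Of the erythroid markers that passed the filter, 4 of 4 were called lower in HP1a WT and 0 of 6 were called in HP1a KO. In the HP1g line 5 of 6 were called higher in WT and 4 of 5 in KO. The part of these cells in the changes of the list was not tested.

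**Figure D1:**
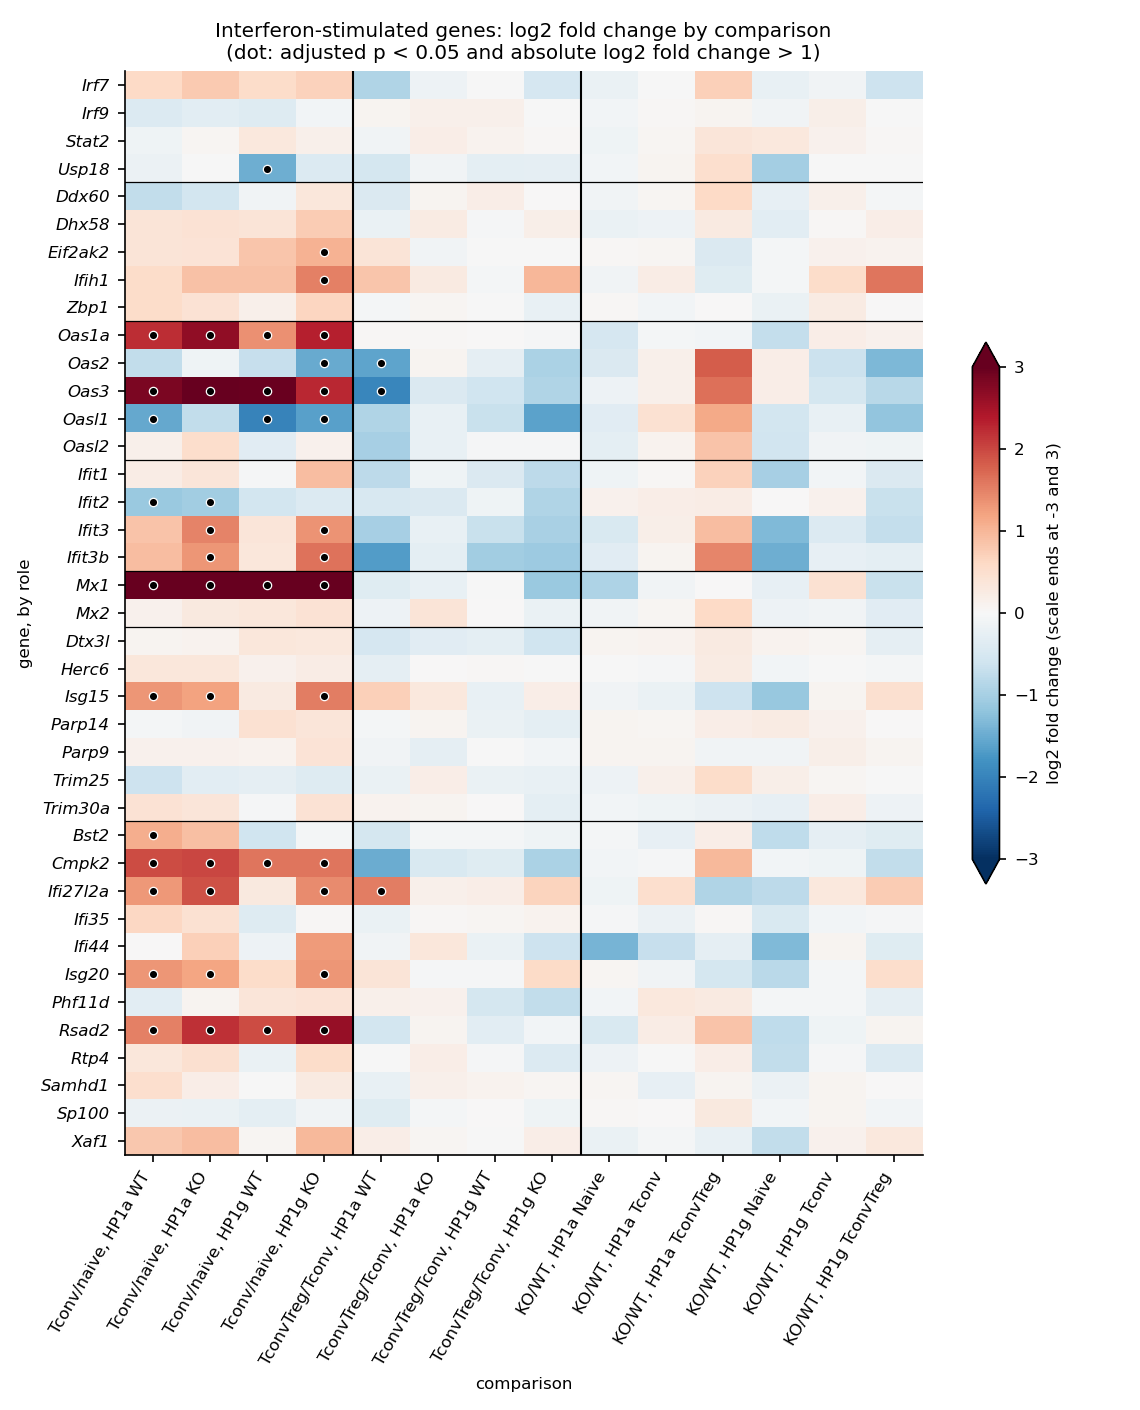
Colours give the log2 fold change of each of the 39 genes (rows, grouped by role) in the 14 comparisons of 2 groups (columns), red for higher and blue for lower in the first-named group, and dots mark the called genes. Dots are dense in the 4 columns of Tconv against naive cells, 3 stand in the column of HP1a WT TconvTreg against Tconv, and none stands in the 6 columns of KO against WT.

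Mx1, Oas3, Oas1a, Rsad2 and Cmpk2 rose in all 4 comparisons. Mx1 encodes a dynamin-like GTPase. It was at 0.203, 1.13 and 0.520 CPM in the naive HP1a WT libraries, at 0.227, 0.395 and 0.354 in HP1a KO, at 0.644, 0.648 and 0.524 in HP1g WT and at 0.411, 0.724 and 0.384 in HP1g KO. In Tconv it was at 19.8, 19.7 and 19.3 CPM in HP1a WT, at 18.2, 18.1 and 17.9 in HP1a KO, at 15.3, 27.3 and 30.9 in HP1g WT and at 26.7, 30.2 and 42.4 in HP1g KO. Every grafted library lay above every naive library, and the log2 fold changes were 4.99, 5.80, 5.33 and 6.07, with SE of 0.51, 0.24, 0.34 and 0.30 (edgeR adjusted p from 6.8e-06 to 0.00014). Its neighbour and paralog Mx2 differed by 0.13 to 0.44 on the log2 scale and was not called.

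The oligoadenylate synthetases make the messenger that activates RNase L, and they split in direction. Oas3 was at 8.06, 12.6 and 11.6 CPM in naive and 70.1, 90.6 and 66.0 CPM in grafted HP1a WT cells, and at 10.2, 10.3 and 12.1 against 86.9, 86.4 and 81.6 CPM in HP1g WT cells. The KO cells had 7.47, 11.7 and 10.2 CPM when naive and 61.5, 104 and 83.9 CPM when grafted in the HP1a line, and 8.94, 17.2 and 11.1 against 36.6, 59.8 and 79.3 CPM in the HP1g line. Groups did not overlap in any of the 4 comparisons, and log2 fold changes ran from 2.27 (SE 0.34) to 3.11 (SE 0.24), with edgeR adjusted p of at most 0.0021. Oas1a rose by 2.21, 2.65, 1.38 and 2.33 (log2 fold change; largest edgeR adjusted p = 0.014, in HP1g WT). The HP1g WT call of Oas1a was lost in 3 of 6 fits that left out 1 library. Oas2 and Oasl1 went the other way, as described further on.

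Rsad2 encodes viperin, which makes a chain-terminating nucleotide, and Cmpk2 encodes a nucleotide kinase of mitochondria. Rsad2 was at 2.90, 8.96 and 3.505 CPM in naive and 15.4, 16.0 and 12.3 CPM in grafted HP1a WT cells, and at 5.25, 10.99 and 4.56 against 39.8, 19.8 and 21.4 CPM in HP1g WT cells. The KO libraries had 3.68, 3.07 and 4.49 against 18.3, 11.6 and 21.1 CPM in the HP1a line, and 2.90, 4.74 and 4.45 against 36.3, 13.0 and 23.6 CPM in the HP1g line. The log2 fold changes were 1.52, 1.95, 2.20 and 2.62 (edgeR adjusted p = 0.017, 0.0089, 0.00069 and 0.0014). The HP1a WT call of Rsad2 was lost in 2 of 6 fits that left out 1 library, over which the change ran from 1.24 to 2.19. In the HP1g line the Tconv libraries numbered 1, which carried the erythroid transcripts, were the highest in Rsad2, and without them the changes were 1.58 in WT and 2.21 in KO, both still called. Cmpk2 went from 16.3 ± 5.47 to 63.1 ± 1.74 CPM (mean ± SD, n = 3) in HP1a WT cells, a log2 fold change of 1.96 (SE 0.22). The other 3 comparisons gave 2.01, 1.62 and 1.61, and the largest edgeR adjusted p of the 4 was 0.0016.

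**Figure D2:**
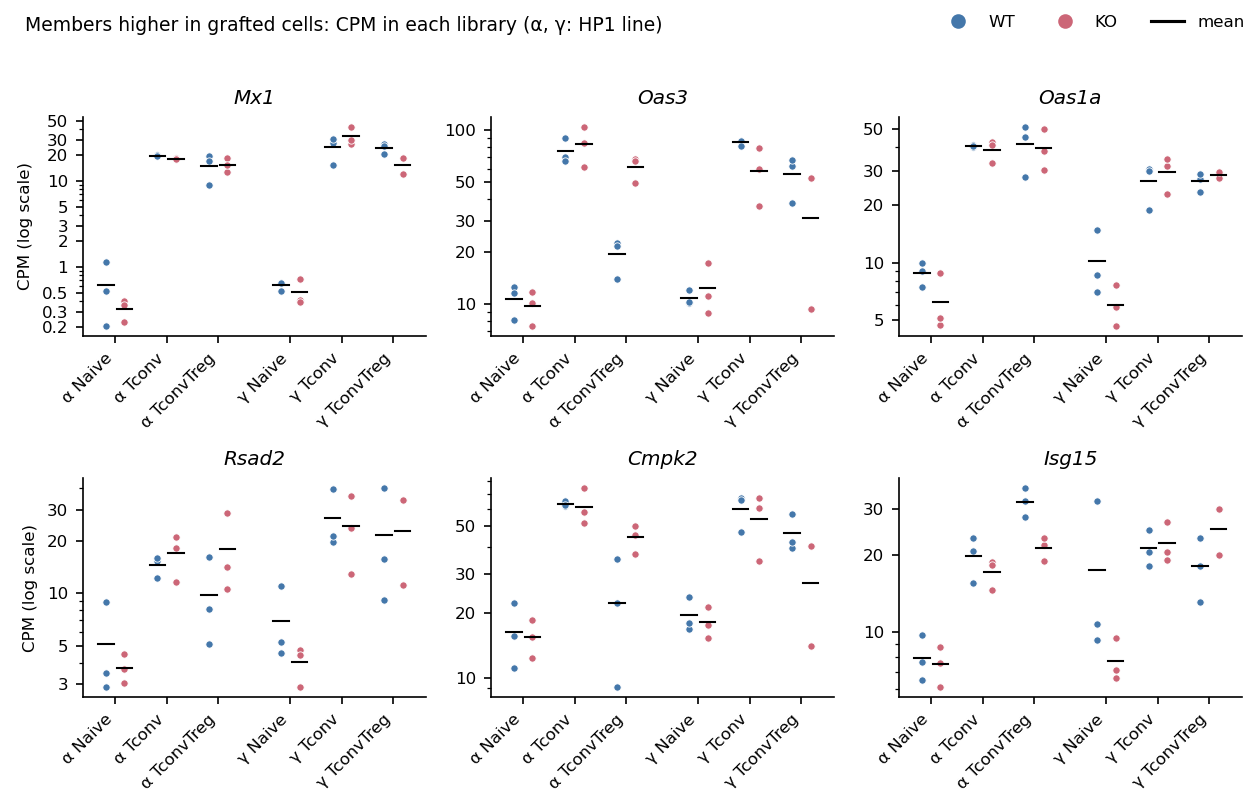
Each point is the CPM of a library on a log axis, and short bars give group means, for 6 members in the naive, Tconv and TconvTreg cells of the HP1a (α) and HP1g (γ) lines, WT in blue and KO in red. All grafted points of Mx1 lie between 8.93 and 42.4 CPM and all naive points between 0.203 and 1.13 CPM, and a lone naive HP1g WT library at 32.2 CPM of Isg15 overlaps the grafted ones.

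Isg15, the ubiquitin-like modifier of the pathway, Isg20, an exonuclease, and Ifi27l2a rose in 3 comparisons and were not called in HP1g WT cells. Isg15 was at 6.49, 9.69 and 7.62 CPM in naive and 20.6, 23.3 and 15.6 CPM in grafted HP1a WT cells (log2 fold change 1.33, SE 0.21, adjusted p = 0.0013 by edgeR). In the HP1a KO it was at 6.09, 7.58 and 8.74 against 18.7, 14.5 and 18.2 CPM (1.22), and in the HP1g KO at 6.61, 9.49 and 7.09 against 19.1, 20.4 and 26.8 CPM (1.54). In HP1g WT cells the naive libraries were at 10.7, 32.2 and 9.30 CPM and the grafted ones at 18.1, 20.4 and 25.0 CPM, so that replicate 2 of the naive group exceeded every grafted library. Without that library, which also stood apart by transcript length, Isg15 (1.08), Isg20 (1.16) and Ifit3b (1.30) were called higher in HP1g WT Tconv too (edgeR adjusted p = 0.0048, 0.0010 and 0.035). Usp18 was then no longer called lower, and the counts became 8 higher and 1 lower. Of all 16516 genes tested in that fit, 2392 were called higher and 1183 lower.

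Ifi27l2a was at 70.0, 93.8 and 95.7 CPM in naive and 165, 314 and 152 CPM in grafted HP1a WT cells, at 63.03, 81.1 and 94.4 against 218, 375 and 294 CPM in HP1a KO, and at 63.1, 80.3 and 56.2 against 121, 196 and 206 CPM in HP1g KO cells. The log2 fold changes were 1.29, 1.91 and 1.42 (edgeR adjusted p = 0.011, 0.00074 and 0.0015). The HP1a WT call of Ifi27l2a was lost in 2 of 6 fits that left out 1 library, over which the change ran from 0.89 to 1.48. In HP1g WT cells it went from 71.9, 197 and 80.1 to 123, 129.8 and 174 CPM, where the groups overlapped (0.29). The annotation places Ifi27 over Ifi27l2a on the opposite strand, and the counts do not use strand.

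The IFIT proteins bind foreign RNA ends. Of the 4 IFIT genes, Ifit3 and Ifit3b rose in KO cells of both lines. Ifit3 was at 8.72, 11.7 and 17.1 CPM in naive and 40.1, 28.5 and 36.3 CPM in grafted HP1a KO cells (log2 fold change 1.5, SE 0.25, adjusted p = 0.0030 by edgeR), and at 8.85, 14.4 and 9.87 against 21.1, 20.4 and 41.1 CPM in HP1g KO cells (1.34, SE 0.31, adjusted p = 0.0098). In WT cells it was at 7.03, 29.5 and 15.0 against 34.9, 30.6 and 27.3 CPM in the HP1a line, and at 15.8, 54.0 and 15.4 against 18.1, 40.4 and 51.7 CPM in the HP1g line. The WT groups overlapped in both lines, and the changes of 0.86 and 0.37 were not called. Ifit3b gave 1.34 in HP1a KO, a call lost in 5 of 6 fits without 1 library, and 1.62 in HP1g KO cells. Ifit1 was not called in any comparison. It was at 20.8, 59.6 and 36.4 CPM in naive and 46.5, 50.02 and 37.8 CPM in grafted HP1a WT cells and at 23.6, 33.7 and 49.998 against 52.1, 39.2 and 45.9 CPM in HP1a KO. HP1g cells had 38.1, 91.3 and 34.6 against 28.4, 61.9 and 69.6 CPM in WT and 22.7, 32.1 and 25.7 against 37.3, 46.0 and 67.5 CPM in KO cells.

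Bst2, Ifih1 and Eif2ak2 rose in 1 comparison each. Bst2 was at 46.5, 39.5 and 42.8 CPM in naive and 85.1, 92.4 and 96.0 CPM in grafted HP1a WT cells (log2 fold change 1.10, SE 0.10, adjusted p = 5.4e-05 by edgeR). In the HP1a KO it went from 37.2, 46.4 and 40.4 to 83.7, 73.8 and 72.4 CPM, a change of 0.91 that lay under the fold limit. In the HP1g line Bst2 was at 56.9, 147 and 59.8 CPM in naive and 59.8, 59.98 and 54.9 CPM in grafted WT cells, and at 51.2, 58.0 and 43.7 against 43.5, 47.9 and 51.8 CPM in KO cells. Ifih1 (MDA5, a sensor of double-stranded RNA) and Eif2ak2 (PKR, the RNA-activated kinase of translation) rose in HP1g KO cells, by 1.52 and 1.03, with edgeR adjusted p = 0.00024 and 0.00052. In HP1g WT cells the same genes differed by 0.87 and 0.83 and were not called. The HP1g KO call of Eif2ak2 was lost in 2 of 6 fits that left out 1 library, over which the change ran from 0.95 to 1.11.

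Oasl1, Ifit2, Oas2 and Usp18 fell in at least 1 comparison. Oasl1, a relative of the synthetases that limits translation of Irf7 mRNA, was at 5.12, 8.41 and 6.31 CPM in naive and 2.10, 3.14 and 1.58 CPM in grafted HP1a WT cells. It was at 7.45, 15.4 and 6.998 against 1.61, 2.80 and 3.11 CPM in HP1g WT cells, and at 6.29, 7.29 and 6.48 against 1.42, 2.11 and 2.84 CPM in HP1g KO cells. The groups did not overlap, and the log2 fold changes were -1.53, -1.99 and -1.63 (edgeR adjusted p = 0.0051, 0.0072 and 0.0021). In HP1a KO cells it was at 3.61, 4.79 and 7.27 against 3.55, 2.14 and 3.64 CPM, and the change of -0.73 was not called.

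Ifit2 was called lower in the HP1a line, going from 51.6, 86.2 and 86.1 to 39.4, 34.4 and 29.0 CPM in WT (-1.11) and from 61.9, 93.0 and 90.3 to 41.1, 38.6 and 37.4 CPM in KO (-1.05), with edgeR adjusted p = 0.0029 and 0.0014. The HP1a KO call of Ifit2 was lost in 2 of 6 fits that left out 1 library. In the HP1g line the changes were -0.55 and -0.41, and the difference between lines was not tested. Oas2 fell in HP1g KO cells, from 9.61, 15.5 and 14.9 to 3.65, 3.62 and 6.46 CPM (log2 fold change -1.52, SE 0.29, adjusted p = 0.0033 by edgeR). It was at 12.3, 11.8 and 11.1 against 3.68, 11.7 and 6.40 CPM in HP1g WT, at 8.49, 13.8 and 10.7 against 8.08, 6.81 and 4.83 CPM in HP1a WT, and at 8.04, 7.67 and 8.68 against 8.70, 5.397 and 7.85 CPM in HP1a KO cells. The change in Oas2 was negative in all 4 comparisons, while that of the adjacent Oas3 was positive in all 4.

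Usp18, the protease that removes ISG15 from proteins and restrains the receptor, fell in HP1g WT cells, from 51.3, 115 and 43.3 to 18.9, 27.5 and 29.9 CPM (log2 fold change -1.46, SE 0.38, adjusted p = 0.022 by edgeR). Its naive replicate 2 was the highest library of all 35. Without that library the change was -0.89 and under the fold limit. In HP1g KO cells Usp18 was at 33.7, 36.0 and 31.2 against 15.9, 21.9 and 36.7 CPM, and in the HP1a line at 26.7, 54.3 and 44.7 against 39.1, 39.1 and 33.1 CPM in WT and 26.5, 45.6 and 47.5 against 41.4, 32.5 and 43.9 CPM in KO cells. None of these 3 was called, with changes of -0.41, -0.17 and -0.0028.

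**Figure D3:**
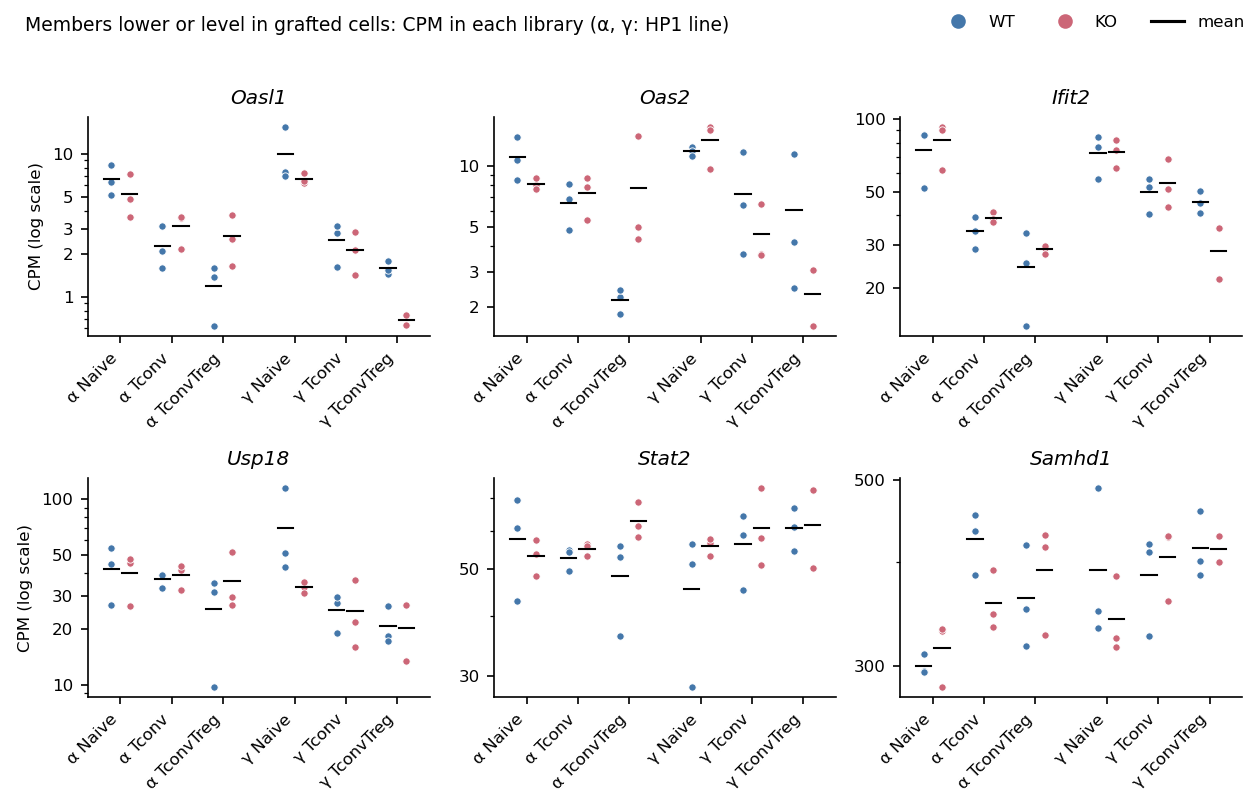
Each point is the CPM of a library on a log axis whose range differs between panels, with bars for group means, for Oasl1, Oas2, Ifit2, Usp18, Stat2 and Samhd1 in the HP1a (α) and HP1g (γ) lines, WT in blue and KO in red. Oasl1 lies at 3.61 to 15.4 CPM in naive and 0.623 to 3.74 CPM in grafted cells, and Stat2 stays within 28.5 to 73.6 CPM.

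None of the transcription factors of the list was called in these comparisons. Stat2 was at 42.9, 69.6 and 60.7 CPM in naive and 54.7, 54.1 and 49.6 CPM in grafted HP1a WT cells, and at 56.4, 28.5 and 51.2 against 45.3, 58.9 and 64.4 CPM in HP1g WT cells. The KO libraries had 48.5, 53.6 and 57.3 against 56.4, 53.1 and 55.7 CPM in the HP1a line and 56.5, 53.3 and 57.7 against 51.0, 57.8 and 73.6 CPM in the HP1g line. The groups overlapped in all 4, with log2 fold changes from -0.12 to 0.31. Irf7, the factor that amplifies interferon production, was at 80.4, 97.4 and 86.0 CPM in naive and 129, 133 and 133 CPM in grafted HP1a WT cells, and at 88.4, 109 and 80.7 against 124, 141 and 142 CPM in HP1g WT cells. The groups did not overlap, and the changes of 0.59 and 0.55, like those of 0.78 and 0.70 in the KO cells, lay under the fold limit. Samhd1 was at 309.9, 296 and 295 CPM in naive and 436, 386 and 455 CPM in grafted HP1a WT cells and at 283, 330.4 and 333 against 390.4, 334 and 346 CPM in HP1a KO. HP1g cells had 334, 489.9 and 349 against 326, 419.7 and 410.3 CPM in WT and 324, 384 and 317 against 359, 428 and 429 CPM in KO cells, with changes over the 4 comparisons from -0.02 to 0.51. By role, 4 or 5 of 12 other effectors rose in 3 of the comparisons and 2 in HP1g WT, 2 of 5 synthetase genes rose in each, and none of the 4 signalling genes rose. Among the members called in none, Trim25, a ubiquitin ligase that acts on the sensor RIG-I, was lower in all 4 (-0.63 to -0.28), as were Irf9 (-0.41 to -0.08) and Sp100 (-0.30 to -0.11). The nucleic acid sensors Zbp1 (0.15 to 0.64) and Dhx58 (0.39 to 0.75) were higher in all 4, as were Herc6 (0.13 to 0.33), Dtx3l (0.09 to 0.34) and Parp9 (0.10 to 0.40), which act in ubiquitin or ADP-ribose transfer. Xaf1 ranged from 0.05 to 0.97, Ifi44 from -0.16 to 1.27, Ddx60 from -0.73 to 0.34, Oasl2 from -0.35 to 0.52, Parp14 from -0.10 to 0.45, Rtp4 from -0.20 to 0.55, Ifi35 from -0.38 to 0.62, Trim30a from -0.04 to 0.43 and Phf11d from -0.32 to 0.41, all as log2 fold changes.

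Whether the loss of HP1a or HP1g altered these changes was tested as an interaction of genotype and activation. No member was called by edgeR in either line, where 0.00587% of all genes were called in the HP1a line and 0.0235% in the HP1g line. At an unadjusted p under 0.05 there was 1 member in the HP1a line (4.89% of all genes) and 5 in the HP1g line (7.89% of all genes). DESeq2 called none in either. The 5 members of the HP1g line were Ifih1, Isg15, Xaf1, Oas1a and Ifi27l2a, all more positive in KO. The interaction of Isg15 was 1.30 (SE 0.55) with all libraries and 0.46 without naive WT replicate 2. The corresponding median over the 39 members was 0.45 with and 0.21 without that library, and that of all genes tested was 0.08.

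In naive HP1g cells KO was compared with WT directly. No member was called by edgeR (0.00669% of all genes), 9 had an unadjusted p under 0.05 (5.78% of all genes), all lower in KO, and DESeq2 called 1, Ifi44 (0.261% of all genes). In 9 members (23.1%) all KO libraries lay below all WT libraries, which 7.26% of all genes did. Usp18 was at 33.7, 36.0 and 31.2 CPM in KO and 51.3, 115 and 43.3 CPM in WT (-1.03, SE 0.33, adjusted p = 0.63 by edgeR), and Ifit3 at 8.85, 14.4 and 9.87 against 15.8, 54.0 and 15.4 CPM (-1.33). Ifi44 was at 1.58 ± 0.272 CPM in KO and 4.01 ± 0.502 CPM in WT (-1.32, SE 0.23). Replicate 2 was the highest WT library in Usp18 and Ifit3. Without it, the changes were -0.52 for Usp18, -0.53 for Ifit3 and -0.40 for Isg15, in place of -1.03, -1.33 and -1.14, and that of Ifi44 was -1.27 in place of -1.32.

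That library was not uniformly high. Against the mean of the other 2 naive WT libraries on the log2 scale, 12 members were over 1 higher, 16 were 0 to 1 higher and 11 were up to 1 lower. The median canonical transcript length was 1911 bases for the 12, 2732.5 bases for the 16 and 4723 bases for the 11. Stat2, at 4504 bases, was lower by 0.91 (log2 difference -0.91). The part of transcript length in the difference between genotypes was not tested.

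**Figure D4:**
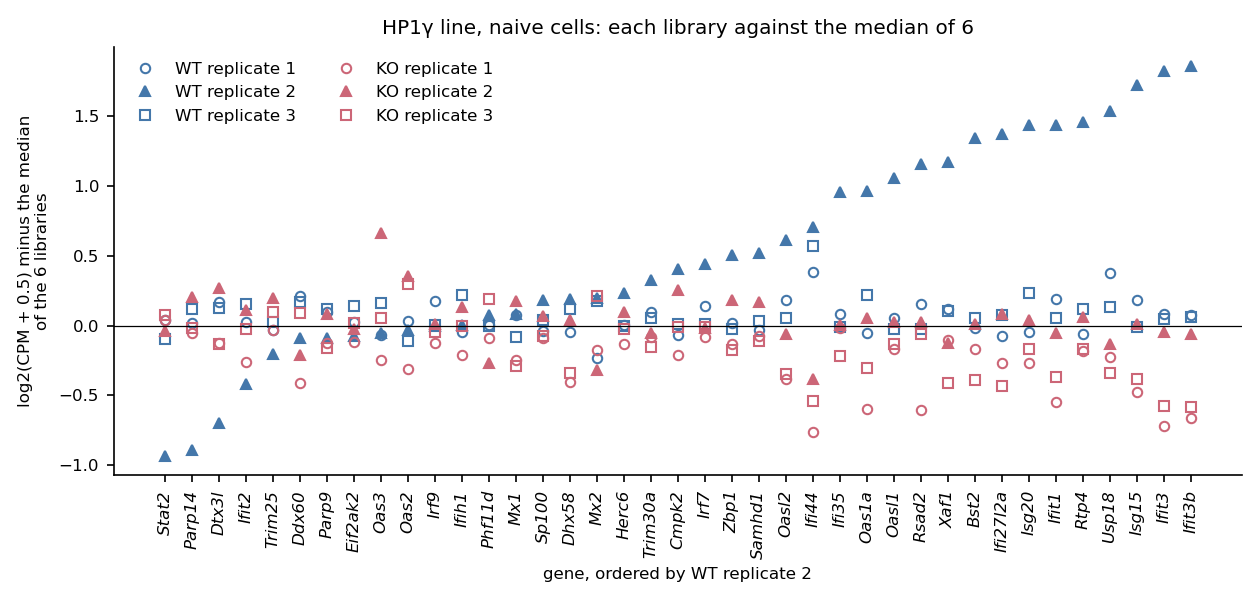
Points give, for each of the 39 genes, log2(CPM + 0.5) in a naive HP1g library minus the median of the 6 naive HP1g libraries, with WT in blue, KO in red and replicate 2 as filled triangles. WT replicate 2 lies over 1 above the mean of the other WT libraries of its group for 12 genes and below that mean for 11.

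In naive HP1a cells no member was called in KO against WT by edgeR or DESeq2, no gene at all passed in edgeR (0%), and 1 member, Ifi44, had an unadjusted p under 0.05 (1.87% of all genes). In Tconv without Treg no member was called in KO against WT of either line, by edgeR or DESeq2, and 2 members in each had an unadjusted p under 0.05. In the HP1a line 0.103% of all genes were called by edgeR and 8.53% passed the unadjusted limit, and in the HP1g line 0.0437% and 8.42%. The members were Samhd1 and Bst2 in the HP1a line, both lower in KO, and Bst2 and Ifih1 in the HP1g line. Bst2 was at 83.7, 73.8 and 72.4 CPM in HP1a KO and 85.1, 92.4 and 96.0 CPM in HP1a WT Tconv, and at 43.5, 47.9 and 51.8 against 59.8, 59.98 and 54.9 CPM in the HP1g line. The groups did not overlap in either line, and the log2 fold changes were -0.25 and -0.27 (edgeR adjusted p = 0.55 and 0.51). Samhd1 was at 390.4, 334 and 346 CPM in HP1a KO and 436, 386 and 455 CPM in HP1a WT Tconv.

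The effect of Treg was read from TconvTreg against Tconv. In HP1a WT cells 2 of 39 members fell (5.13%, against 2.43% of all genes) and 1 rose (2.56%, against 3.54%). Oas3 was at 70.1, 90.6 and 66.0 CPM without Treg and 22.4, 21.7 and 13.9 CPM with Treg (log2 fold change -1.95, SE 0.23, adjusted p = 0.0042 by edgeR). Oas2 was at 8.08, 6.81 and 4.83 against 2.25, 2.44 and 1.84 CPM (-1.58, SE 0.33, adjusted p = 0.031). The groups did not overlap in either gene. Ifi27l2a went up instead, from 165, 314 and 152 to 494, 524 and 783 CPM (1.54, SE 0.33, adjusted p = 0.033 by edgeR). Oas3 was called in all 6 fits that left out 1 library, Ifi27l2a in 2 and Oas2 in 1.

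Further members lay lower with Treg without being called. Cmpk2 was at 61.9, 65.1 and 62.4 CPM without and 35.3, 22.1 and 9.11 CPM with Treg (-1.50, SE 0.42, adjusted p = 0.079 by edgeR), and Ifit3b at 10.6, 9.19 and 7.90 against 4.77, 2.96 and 0.805 CPM (-1.68, adjusted p = 0.14). Irf7 was at 129, 133 and 133 against 86.9, 74.3 and 49.6 CPM, and its change of -0.89 had an edgeR adjusted p of 0.043 and lay under the fold limit. In 12 members (30.8%) all libraries with Treg lay below all without, against 18.7% of all genes. The median log2 fold change was -0.21 over the 39 and 0.03 over all genes tested. DESeq2 called 5 members, Cmpk2 and Ifit3b in addition (9.95% of all genes). Isg15, by contrast, was at 20.6, 23.3 and 15.6 CPM without and 32.2, 27.9 and 36.4 CPM with Treg (0.72, adjusted p = 0.089 by edgeR). Replicate 3 with Treg was the lowest of its group in 25 of 39 members, where it was the lowest in 48.4% of genes at 1 CPM or more, and Usp18 stood at 31.5, 35.2 and 9.69 CPM in replicates 1, 2 and 3. Without replicate 3, Oas3, Oas2, Ifi27l2a, Cmpk2 and Ifit3b were called, with -1.78 for Oas3 and -1.13 for Cmpk2. Of all genes, 1450 of 16276 were called in that fit, against 932 of 15627 with all libraries. In this group the 5 Treg markers summed to 716 to 944 CPM, against 351 to 386 CPM without Treg, and the 10 myeloid markers to 27.8 to 35.0 CPM against 6.77 to 7.70 CPM, of which Clec7a, Csf3r and Fcgr1 were at 0 in all Tconv libraries. The 5 plasmacytoid dendritic cell markers summed to 65.0 to 79.2 CPM against 25.1 to 39.5 CPM, with Clec10a and Siglech at 0 in all Tconv libraries. Of these 5, 3 passed the filter and 1 was called higher. The part of these cell types in the result was not tested.

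**Figure D5:**
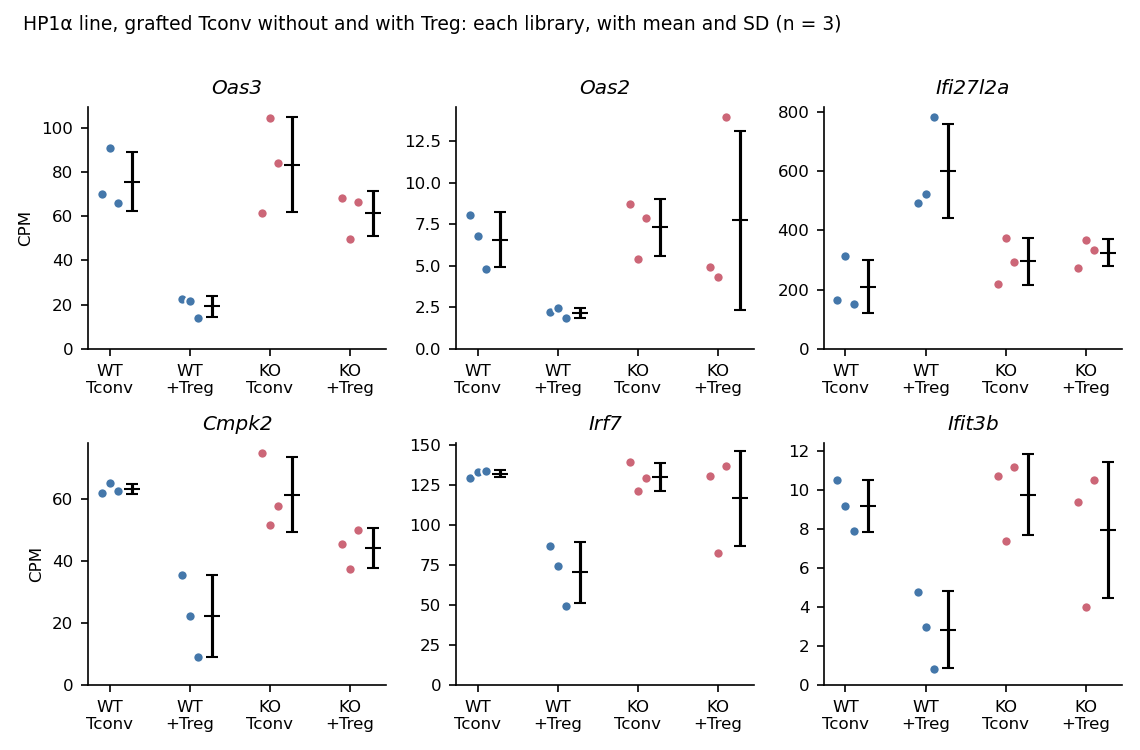
Points give the CPM of each library for 6 members in grafted HP1a cells, WT in blue and KO in red, without and with Treg, and black bars give the mean and SD (n = 3). The WT libraries with Treg lie lowest in Oas3 (13.9 to 22.4 CPM) and highest in Ifi27l2a (494 to 783 CPM), and the KO libraries with and without Treg overlap in Oas3, Oas2 and Ifi27l2a.

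No member was called for Treg in the other 3 groups. In HP1a KO cells edgeR and DESeq2 called none (0.440% of all genes by edgeR), and 4 members had an unadjusted p under 0.05 (15.8% of all genes). Oas3 was at 61.5, 104 and 83.9 CPM without and 68.0, 49.7 and 66.2 CPM with Treg (-0.43), Oas2 at 8.70, 5.397 and 7.85 against 4.95, 4.32 and 13.9 CPM (0.09), and Ifi27l2a at 218, 375 and 294 against 275, 366 and 333 CPM (0.15). All 3 overlapped. In HP1g WT cells none was called by edgeR or DESeq2 (0.0126% of all genes by edgeR), and 3 had an unadjusted p under 0.05 (6.89% of all genes). Oas3 was among them, at 86.9, 86.4 and 81.6 CPM without and 38.1, 61.9 and 67.4 CPM with Treg, and the groups did not overlap (-0.61, SE 0.20, adjusted p = 0.69 by edgeR).

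In HP1g KO cells, with 2 libraries with Treg, no gene passed in edgeR (0%), 7 members had an unadjusted p under 0.05 (7.62% of all genes), and DESeq2 called Mx1 (1.42% of all genes). Mx1 was at 26.7, 30.2 and 42.4 CPM without and 11.98 and 18.4 CPM with Treg (-1.10, SE 0.29, adjusted p = 0.50 by edgeR). In 9 members (23.1%) both libraries with Treg lay below all 3 without, as in 12% of all genes, among them Oasl1 at 1.42, 2.11 and 2.84 against 0.739 and 0.633 CPM and Ifit1 at 37.3, 46.0 and 67.5 against 27.3 and 30.8 CPM. The 2 libraries differed from each other, with Oas3 at 9.31 and 52.9 CPM and Ifih1 at 117 and 51.8 CPM, and the first of them held the most erythroid transcripts of all libraries, 4895 CPM.

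With Treg present, HP1a KO cells were compared with WT. No member was called by edgeR (0.123% of all genes), 8 had an unadjusted p under 0.05 (12.1% of all genes), and DESeq2 called Oas3 and Oas2 (3.63% of all genes). Oas3 was at 68.0, 49.7 and 66.2 CPM in KO and 22.4, 21.7 and 13.9 CPM in WT (1.65, SE 0.23, adjusted p = 0.058 by edgeR). Oas2 was at 4.95, 4.32 and 13.9 against 2.25, 2.44 and 1.84 CPM (1.81, SE 0.52, adjusted p = 0.23). The genotypes did not overlap in either gene, and a fit of all libraries of the line called both. That fit called 647 of 18016 genes, against 20 of 16256 in the fit of the 2 groups. In 8 members (20.5%) all KO libraries lay above all WT libraries, against 11.7% of all genes. Ifi27l2a (-0.91), Isg15 (-0.62) and Isg20 (-0.52) lay lower in KO and were not called, with edgeR adjusted p = 0.18, 0.25 and 0.23. Here the 10 myeloid markers summed to 51.3 to 318 CPM in KO and 27.8 to 35.0 CPM in WT, beside the neutrophil markers given above, and the 5 Treg markers to 315 to 490 CPM in KO and 716 to 944 CPM in WT. Their part in the result was not tested.

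The interaction of genotype and Treg asks whether Treg acted differently on KO and WT cells. In the HP1a line it was 1.52 (SE 0.33) for Oas3, 1.67 (SE 0.59) for Oas2 and -1.39 (SE 0.42) for Ifi27l2a. None was called by edgeR (adjusted p = 0.11, 0.35 and 0.24; 0.139% of all genes called), 6 members had an unadjusted p under 0.05 (9.74% of all genes), and DESeq2 called Oas3 and Ifi27l2a (1.95% of all genes). In the HP1g line no member and no gene was called by edgeR (0%) and no member by DESeq2, and 4 members had an unadjusted p under 0.05 (3.74% of all genes). According to the paper, the Treg ratio of the HP1g experiment did not effectively repress the response of WT cells. Line and Treg ratio therefore cannot be told apart when the 2 lines are compared. The difference between the Treg effects of the 2 WT groups was also tested. No member was called by edgeR (1.56% of all genes), 8 had an unadjusted p under 0.05 (15.7% of all genes), and DESeq2 called Oas3 (4.65% of all genes), whose difference was -1.36 (SE 0.31, edgeR adjusted p = 0.053).

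In HP1g TconvTreg cells KO and WT gave no call for any gene in edgeR (0%), 7 members with an unadjusted p under 0.05 (11.8% of all genes) and 1 DESeq2 call, Ifih1 (3.29% of all genes). Ifih1 was at 117 and 51.8 CPM in the 2 KO libraries and 29.7, 23.7 and 30.8 CPM in WT (1.60, SE 0.34, adjusted p = 0.21 by edgeR). With KO replicate 1 as the lone KO library, the changes were 2.04 for Ifih1 and -1.72 for Cmpk2. Without the libraries numbered 1, which leaves KO replicate 2 as the lone KO library, the change in Ifih1 was 0.94. Irf7 lay lower in KO, at 75.6 and 97.8 against 138, 132 and 131 CPM (-0.61), as did Bst2, at 44.0 and 41.9 against 49.99, 63.1 and 54.8 CPM (-0.37), with edgeR adjusted p = 0.22 and 0.39.

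The genes upstream of the list were taken as a further list of 40, of which 30 or 31 passed the filter in each comparison. Type I interferon genes themselves had almost no reads: Ifnb1, Ifna1 and Ifna4 had 1 count in 1 of 35 libraries each, and Ifna2 and Ifna5 had none. The receptor genes Ifnar1 and Ifnar2 had group means of 117 to 201 and 70.9 to 103 CPM. In Tconv against naive cells, 4 of the list rose and 1 fell in HP1a WT and in HP1a KO cells, 7 rose and 2 fell in HP1g WT, and 4 rose and 4 fell in HP1g KO cells. Of all genes, 12.9%, 12.4%, 15.0% and 15.7% rose in the same order and 10.2%, 7.24%, 8.55% and 7.30% fell. Ifng, Ifngr1, Irf5 and Irf8 rose in all 4. The cytokine gene Ifng had group means of 0.0678 to 0.209 CPM in naive and 263 to 517 CPM in Tconv. Ifnar1 and Ifnar2 were not called in any of them.

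Among 18 interferon-inducible GTPases, which respond mainly to interferon gamma, 2 rose in HP1a WT, HP1a KO and HP1g WT cells and 8 in HP1g KO cells, and 1 fell, in HP1g WT, against the shares of all genes just given. Gbp3 rose by 2.20 to 3.30 and Gvin1 by 1.77 to 2.66 on the log2 scale in all 4. With Treg in HP1a WT cells none of the 18 was called, while Irf8 (1.53) and the phosphatase gene Ptpn11 (1.55) rose and Ifngr1, a chain of the interferon gamma receptor, fell (-2.38), with edgeR adjusted p = 0.0097, 0.0022 and 0.0020. No gene of either list was called in KO against WT in any condition, and none of the 18 GTPases was called for an interaction of genotype and activation.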

How the data were processed

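Total RNA of sorted or purified CD4 T cells was made into cDNA libraries with an unstranded kit (SMART-Seq) and sequenced in paired ends. Per the labels and the methods of the study, the authors trimmed reads, aligned them with STAR to GRCm39 (mm39) and deposited a table of estimated counts per gene made with Salmon; 82.9% of its values were whole numbers. Here the estimated counts were rounded. Genes were kept by edgeR's filterByExpr, scaled by TMM and tested with edgeR's quasi-likelihood test (edgeR 4.0.16, limma 3.58.1, R 4.3.3), in a fit of the compared groups only, with Benjamini-Hochberg adjustment over all genes tested. Calls needed an adjusted p under 0.05 and an absolute log2 fold change above 1, the limits used in the study. HP1g KO TconvTreg replicate 3 was left out, as the authors did on grounds of GC content, exonic share and coverage bias. CPM were computed from the counts and TMM factors over the 35 libraries used. Those of the library left out used TMM factors over all 36 libraries. A change is first minus second group on the log2 scale.

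The labels do not say that libraries of a group came from separate animals, so p-values measure only the spread between these libraries. All pairs of replicate libraries differed by more than sampling noise (lowest chi-square per gene 8.37). Replicate numbers paired the samples by correlation above 0.1 in all 3 pairs only in HP1a naive KO against WT (0.441 to 0.794) and in Treg in HP1g WT cells (0.132 to 0.432). In HP1g KO against WT with Treg both available pairs lay above 0.1 (0.447 and 0.223). Without Treg the pairs of that comparison were at 0.511, 0.0962 and 0.433. Positions, exon lengths and motifs came from GENCODE vM39 on GRCm39. Reads without strand cannot separate members from genes that overlap them on the other strand, such as Dtx3l with Parp9, Irf7 with Phrf1 and Oas1a with Oas1d, and the counts of related genes such as Ifit3 and Ifit3b are uncertain where reads fit both. The members and all other lists were chosen with earlier results of these data known. All 39 members were accounted for, and values per library were given for 10 members named by role (Isg15, Ifit1, Ifit3, Irf7, Stat2, Usp18, Oas2, Mx1, Bst2, Samhd1), for every member called for Treg or genotype, and for others by their calls. Scripts were tested on simulated data. Alternatives were DESeq2 1.42.0, RLE size factors, no filter, no fold limit, fits of a whole line, a replicate block and leaving out each library. Leaving out the grafted HP1g libraries numbered 1 was added after the data were seen.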

Additional observations from a re-analysis of the deposited data

Results flagged for a closer look

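The library left out of all comparisons, HP1g KO TconvTreg replicate 3, carried 9 of the 39 members above the highest of the other 35 libraries, in data no comparison uses. Its CPM were scaled with TMM factors over all 36 libraries, and those of the others with factors over the 35. Samhd1 was at 8036 CPM, where the highest other library had 489.9 CPM. Sp100 was at 4410 CPM (962 CPM), Trim25 at 451 CPM (64.0 CPM), Stat2 at 173 CPM (73.6 CPM) and Ddx60 at 83.1 CPM (69.3 CPM). Oasl2 was at 56.4 CPM (19.6 CPM), Ifi44 at 56.2 CPM (6.20 CPM), Oasl1 at 34.7 CPM (15.4 CPM) and Oas2 at 16.4 CPM (15.5 CPM). In the same library other members lay below the lowest of the 35 (in brackets). Isg15 was at 0.70 CPM (6.09 CPM), Bst2 at 2.64 CPM (37.2 CPM), Usp18 at 3.20 CPM (9.69 CPM), Irf7 at 26.2 CPM (49.6 CPM) and Dtx3l at 40.6 CPM (79.4 CPM). The share of all genes above or below the other libraries was not counted, so the 9 cannot be read as particular to the list. The 10 most abundant genes held 15.4% of its counts, against at most 9.34% in the other libraries. In this library the median log2 difference from its group was -2.07 for short and 0.44 for long transcripts, a difference of -2.51.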

How the results depend on the processing

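No log2 fold change of a called member reversed its sign under an alternative. The medians over the 39 members given in the text kept their sign, while medians near 0 changed sign in KO against WT of HP1a Naive, HP1a Tconv, HP1g Tconv and HP1g TconvTreg, in Treg of HP1a KO and HP1g WT, in genotype by Treg of HP1g and in genotype by activation of HP1a. Of 267 recomputed counts of members called, 242 stayed within 1.5 times the value reported. Without the fold limit, 23 members were called in place of 11 in activation of HP1a WT and 21 in place of 11 in HP1a KO cells, where 7324 of 16027 and 6408 of 15773 genes were called. For Treg in HP1a WT cells (3 called), DESeq2 gave 5, and leaving out a library gave 1 to 5: 1 without Tconv replicate 1, Tconv replicate 3 or TconvTreg replicate 2, and 5 without TconvTreg replicate 3. DESeq2 gave 1 call for Treg in HP1g KO cells, 1 for naive HP1g KO against WT, 2 for HP1a KO against WT with Treg, 1 for HP1g KO against WT with Treg, 2 for the interaction of genotype and Treg in the HP1a line and 1 for the difference of Treg effects between lines, all in place of 0. The fit of a whole line gave 2 calls for HP1a KO against WT with Treg, 1 for the same comparison in the HP1g line and 1 for the HP1a interaction with Treg. Without the filter on low counts there was 1 call each for HP1a KO against WT with Treg, for that interaction and for the difference between lines, where fits without the grafted HP1g libraries numbered 1, an alternative chosen after seeing the data, also gave 1. Leaving out a library gave 0 to 1 for HP1a KO against WT with Treg (1 without WT replicate 3), 0 to 2 for HP1g KO against WT with Treg (2 without KO replicate 2) and 0 to 1 for the difference between lines (1 without TconvTreg replicate 1 or 3 of HP1a WT or replicate 1 of HP1g WT). Among activation calls, leaving out a library most often removed Ifit3b in HP1a KO (5 of 6 fits), Usp18 in HP1g WT (4 of 6), and Oas1a in HP1g WT and Ifit3 in HP1g KO (3 of 6 each). The causes of these shifts were not tested. Adding HP1g KO TconvTreg replicate 3 gave 0 calls in its 3 comparisons. The replicate block gave 0 calls in both comparisons whose libraries paired in all 3 pairs. It also gave 0 in HP1g KO against WT without and with Treg, where some pairs were correlated. For Treg in HP1a WT cells the block gave 2 calls in place of 3, and for activation 11, 11, 7 and 14 as reported. With 3 libraries a group, some calls rested on a single library, and a gene could be stable in one comparison and not in another. In activation of HP1g KO cells, Ifit3b and Oas2 were called in 6 of 6 fits. Ifit3b was called in 1 of 6 in activation of HP1a KO cells, and Oas2 in 1 of 6 for Treg in HP1a WT cells.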
